A study of Oryctolagus cuniculus with 6 samples.

Results

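Fibroblast growth factor (FGF) signalling was followed in rabbit blastocysts through 5 genes: the ligand FGF2, the receptor FGFR1, the transcription factors ETV4 and ETV5, and the phosphatase DUSP6. Every non-control probe whose gene, by its name, description or accessions in the array files, was 1 of these was taken, and 13 of 43603 probes were found. FGF2 and DUSP6 had 5 probes each, and FGFR1, ETV4 and ETV5 had 1 each. All 13 passed the filter on dim probes, with 30760 probes tested in all. A further probe is described as DUSP6 in the array files but matched DUSP7 in the rabbit gene table, and it is given apart.

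The blastocysts were of New Zealand White rabbits, and all were aged 6 days. The vitrified group comprised 3 extracts of embryos that had been cooled in dimethyl sulphoxide and ethylene glycol straight into liquid nitrogen, warmed and transferred to recipient females. The frozen group comprised 3 extracts of embryos that had been slowly cooled in dimethyl sulphoxide, with ice seeded by hand, then thawed and transferred. Controls were untreated embryos that had developed in vivo, in 3 extracts, so the treated groups differ from them by the transfer as well as by the cooling, and these cannot be told apart. Per the labels only viable embryos were used, and how many embryos an extract held is not given in the sources used here. Each of 6 arrays set 1 treated extract against 1 control extract in separate dyes. Arrays with the same replicate number carried, per the labels, the same control extract, so both treatments were set against shared controls. Nothing states how the replicates were separated beyond their being biological, so the spread is that between these extracts.

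FGFs are secreted proteins that bind, together with heparan sulphate, to receptor tyrosine kinases. The activated receptor passes its signal through a chain of kinases to ERK, which switches on genes of the ETV family and inhibitors that dampen the same pathway, DUSP6 among them. In the mouse blastocyst, FGF signals from the epiblast direct inner cells towards the hypoblast, and later in vertebrate embryos FGF signalling takes part in forming mesoderm. Levels of ETV4, ETV5 and DUSP6 RNA are therefore widely used as readouts of FGF and ERK activity.

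The probe sequences show how far the probes of a gene are separate measurements. The 5 FGF2 probes start between bases 270 and 355 of the same transcript and step along it, each sharing at least 35 of its 60 bases with the next, while the first and the last share none. The last 2 are printed with their 35 shared bases in capitals.
FGF2 A_04_P004862: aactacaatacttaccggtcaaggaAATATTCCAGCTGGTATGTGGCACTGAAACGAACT
FGF2 A_04_P004861: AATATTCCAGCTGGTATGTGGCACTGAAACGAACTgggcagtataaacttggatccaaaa
The first of the 5, in lower case, lies outside that overlap.
FGF2 A_04_P004865: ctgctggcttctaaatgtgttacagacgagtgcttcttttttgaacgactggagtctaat
The 5 DUSP6 probes start between bases 956 and 960 of their transcript, so they are nearly the same probe. The first and the last still share 56 bases, in capitals.
DUSP6 A_04_P080656: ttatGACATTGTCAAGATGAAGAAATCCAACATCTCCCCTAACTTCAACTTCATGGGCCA
DUSP6 A_04_P080652: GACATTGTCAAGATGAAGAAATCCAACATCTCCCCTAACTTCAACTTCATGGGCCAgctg
FGFR1, ETV4 and ETV5 each rest on a single sequence.
FGFR1 A_04_P056567: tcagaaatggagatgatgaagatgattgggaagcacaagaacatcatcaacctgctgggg
ETV4 A_04_P070047: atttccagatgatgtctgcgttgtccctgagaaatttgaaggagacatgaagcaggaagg
ETV5 A_04_P098702: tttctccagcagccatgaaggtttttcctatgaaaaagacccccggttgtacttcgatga

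The array files place the probes on the rabbit genome, in a build that is not given in the sources used here. A_04_P004861 of FGF2 lies on the plus strand at chr15:98738811-98738870. The coordinates of A_04_P004865 run from 98708453 to 98738785 on the same chromosome, a span of 30333 bases for a probe of 60. The ETV4 probe spans 167 bases at chr19:44025721-44025887 on the minus strand, and the ETV5 probe 5684 bases at chr14:79516896-79522579 on the plus strand. These 3 probes thus cover more genome than their own length. The DUSP6 probe A_04_P080652 lies at chr4:68381576-68381635 on the minus strand, and the FGFR1 probe is marked as unmapped in the files. The files describe this probe as fibroblast growth factor receptor 1-like, and the rabbit gene table matched it to FGFR1. Exon and UTR boundaries were not used here. The GC content of the 13 probes was between 40.0% and 45.0%.

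Values are log2 ratios of treated over control, from intensities that were background-corrected with an offset of 50 added and normalised by loess within each array. Fold changes are those fitted by limma over all 6 arrays with a term for the dye, given with their standard error (SE) and n = 3 arrays per treatment, and adjusted p is Benjamini-Hochberg over all 30760 tested probes. The number of arrays limits the precision. Between 44.7% and 58.0% of spots were well above background in green (Cy3) and between 64.2% and 74.5% in red (Cy5). The split between dyes was wider for the 13 probes, with 76 of 78 measurements well above background in Cy5 and 33 of 78 in Cy3. Treated RNA was labelled with Cy5 in replicates 1 and 3, and the dyes were swapped in replicate 2. Both swapped arrays carried, per the labels, the same control extract. In the fitted dye term, an effect of the dye and one of that extract therefore cannot be told apart. SEs, intervals and p-values of the fit are taken after this term, so they leave out what both swapped arrays share. FGFR1 was well above background in all 12 channel measurements, FGF2 (A_04_P004861) in 11, ETV5 in 9, and ETV4 and DUSP6 (A_04_P080652) in 8.

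None of the 13 probes passed limma's moderated test at an adjusted p of 0.05. Of all tested probes, 0.0195% passed in vitrified against control embryos, 0.185% in frozen against control and 0% in vitrified against frozen. In vitrified embryos, 1 probe of the 13, that of FGFR1, had an unadjusted p under 0.05, and it lay below control; 7.4% of all tested probes did so. In frozen embryos 5 of the 13 did so below control, 4 of them overlapping FGF2 probes and the other that of ETV4, against 7.17% of all. In the direct comparison 2 of the 13, an FGF2 probe and the ETV4 probe, had an unadjusted p under 0.05 with the higher value in vitrified embryos, against 4.06% of all. Fitted values were below 0 for 10 of 13 probes in vitrified embryos, against 48.7% of all, and for 12 of 13 in frozen embryos, against 48.3%. With 10 of the 13 probes on only 2 transcripts, these counts do not stand for 13 separate measurements.

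FGF2 binds FGF receptors and heparan sulphate at the cell surface, and rabbit embryonic stem cells are commonly grown with it. On its brightest probe, A_04_P004861, the ratio was -0.21, -0.18 and 0.12 on the vitrified arrays 1, 2 and 3. It was -0.08, -0.42 and -0.60 on the frozen arrays. The frozen arrays thus all lay below 0, as 14.7% of all probes did and 5 of the 13, while the vitrified arrays lay on both sides of 0.

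In channel levels on the log2 scale, frozen extracts gave 7.35, 7.32 and 6.81 on this probe, against 7.43, 7.75 and 7.41 for the controls on the same arrays. The highest frozen level was below the lowest control level, which 6% of all probes and 3 of the 13 showed. Vitrified extracts gave 7.24, 7.76 and 7.61 against 7.45, 7.94 and 7.50, and these overlapped. Mean levels were 7.16 ± 0.31 (SD, n = 3) in frozen and 7.54 ± 0.27 (SD, n = 3) in vitrified embryos, against 7.53 ± 0.19 and 7.63 ± 0.27 in their controls. Frozen embryos were the lowest in this order, but their levels overlapped with those of vitrified embryos, and vitrified embryos and controls did not differ beyond their spread.

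The fitted FGF2 value in frozen embryos was -0.39 ± 0.13 (SE, 1.31-fold lower, 95% interval -0.68 to -0.09), which did not pass (adjusted p = 0.262). In vitrified embryos it was -0.11 ± 0.13 (95% interval -0.41 to 0.19, adjusted p = 0.698). The difference between vitrified and frozen embryos, 0.28 with a 95% interval of -0.13 to 0.69, did not pass either (adjusted p = 0.766). Leaving out 1 array moved this difference between 0.13, without frozen replicate 3, and 0.42, without frozen replicate 1. Without frozen replicate 3 the frozen value was -0.25. With an offset of 10 in place of 50 it was -0.53, and on the log ratio of the scanner software it was -0.83, with adjusted p = 0.335.

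The other 4 FGF2 probes had frozen values between -0.30 and -0.45. A_04_P004865, which shares no base with A_04_P004861, was at -0.30 ± 0.12 in frozen embryos (adjusted p = 0.353) and at 0.08 ± 0.12 in vitrified. Its frozen arrays read 0.13, -0.66 and -0.09, and on the swapped array, the lowest, the treated signal was not well above background. A_04_P004864 was at -0.39 ± 0.10 in frozen embryos (adjusted p = 0.174), below 0 on all 3 arrays, and at 0.05 ± 0.10 in vitrified. On A_04_P004863, vitrified embryos were at -0.15 and frozen embryos at -0.31. In sign and size the fitted frozen values of the 5 probes were close to each other, after dye terms from 0.05 to 0.67. The fitted values of vitrified embryos lay on both sides of 0, from -0.15 to 0.08. All 5 probes read 1 transcript in the same extracts, so they are not replicates. Their ratios on frozen array 1 lay on both sides of 0, from -0.08 to 0.45. On frozen array 2 the treated signal was well above background on A_04_P004861 alone. The same held for the control signal on frozen array 3.

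A_04_P004862 had the lowest frozen value, -0.45 ± 0.12 (adjusted p = 0.179), but its arrays read 0.45, -1.20 and 0.07. On the vitrified arrays it read 0.42, -0.67 and 0.63. Both low ratios were on the arrays with swapped dyes, which also share a control extract, and the fitted dye term of this probe was 0.67. It was well above background in 5 of 12 measurements, all of them in Cy5.

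**Figure D1:**
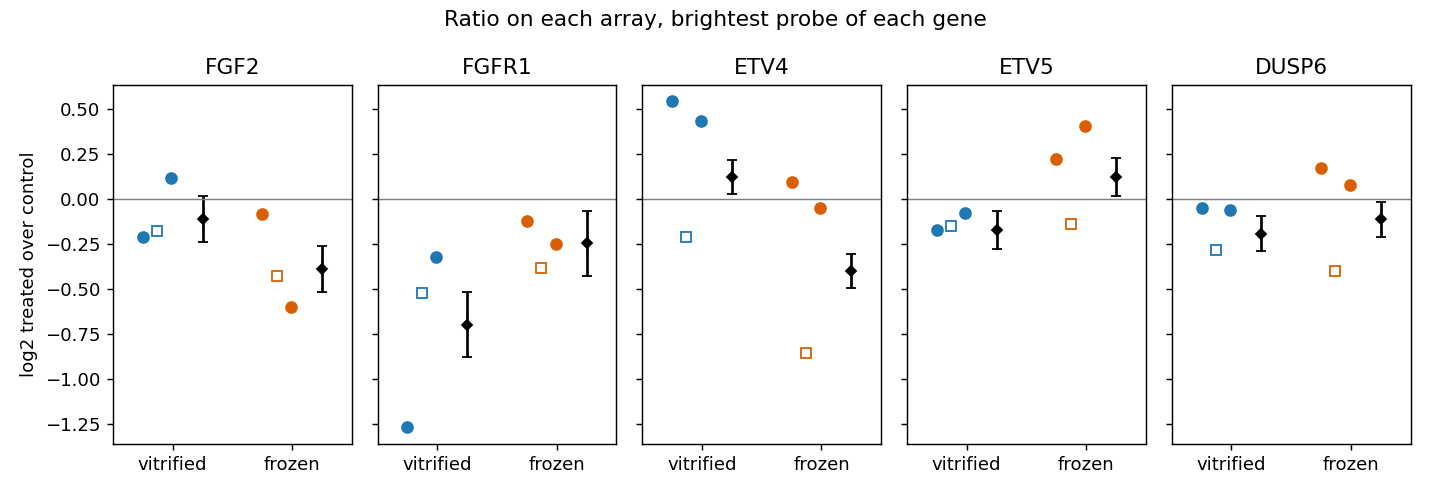
Log2 treated over control on each array for the brightest probe of each gene; filled circles are arrays with the treated extract in Cy5, open squares the swapped arrays, and black diamonds the fitted value with its standard error. FGFR1 is lowest on vitrified array 1 at -1.27, and ETV4 is lowest on the swapped frozen array at -0.85.

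FGFR1 is the receptor through which FGF2 signals in many cell types. Its probe gave ratios of -1.27, -0.52 and -0.32 on the vitrified arrays and of -0.12, -0.38 and -0.25 on the frozen arrays. The vitrified arrays all lay below 0, as 16.9% of all probes and 4 of the 13 did. The ratio on vitrified array 1 was the farthest from 0.

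Vitrified extracts gave FGFR1 levels of 8.52, 9.09 and 8.93, against 9.79, 9.61 and 9.25 for their controls. All vitrified levels were below all control levels, which was so for 7.6% of all probes and for no other of the 13. Frozen extracts gave 9.85, 9.01 and 9.10 against 9.97, 9.40 and 9.35, and these overlapped. Mean levels ran from 8.85 ± 0.30 (SD, n = 3) in vitrified through 9.32 ± 0.46 (SD, n = 3) in frozen to 9.55 ± 0.27 and 9.57 ± 0.35 in the controls of the vitrified and the frozen arrays. Frozen embryos overlapped in level with both their neighbours in that order.

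The fitted FGFR1 value in vitrified embryos was -0.70 ± 0.18 (SE, 1.62-fold lower, 95% interval -1.12 to -0.28) and did not pass (adjusted p = 0.180). Without vitrified replicate 1 it was -0.42 (adjusted p = 0.360). In frozen embryos the value was -0.24 ± 0.18 (95% interval -0.66 to 0.18, adjusted p = 0.628), and -0.05 without frozen replicate 2. Vitrified and frozen embryos differed by -0.45 ± 0.25 (95% interval -1.03 to 0.12, adjusted p = 0.716), so the 2 treatments were not shown to differ. Without vitrified replicate 1 this difference was -0.14, and without vitrified replicate 3 it was -0.68. The dye term of this probe was -0.02. Control signals net of background ran from 330 to 1198, well over the offset of 50.

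By slide, the FGFR1 ratio was -1.27 on the 1 vitrified array of slide 1 and -0.42 over the 2 of slide 2, and it was -0.25 on both slides for frozen embryos. FGF2 in frozen embryos was at -0.25 over the 2 arrays of slide 1 and at -0.60 on the 1 array of slide 2. Each slide held 3 arrays and both treatments. A slide holds too few arrays of a treatment for a test within it.

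ETV4 and ETV5 are ETS-family transcription factors whose RNA rises when FGF receptors activate ERK. The ETV4 ratio was 0.55, -0.21 and 0.44 on the vitrified arrays. It was 0.10, -0.85 and -0.05 on the frozen arrays. In each treatment the lowest ratio was that of replicate 2, the arrays with swapped dyes. On both of these arrays the treated signal was not well above background. The control signal was not well above background on replicate 3 of either treatment.

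ETV4 levels were 7.49, 6.94 and 7.42 in vitrified extracts against 6.94, 7.15 and 6.98 in their controls, and 7.03, 6.89 and 7.04 in frozen extracts against 6.94, 7.74 and 7.09. All of these overlapped. Mean levels were 7.28 ± 0.30 (SD, n = 3) in vitrified and 6.99 ± 0.09 (SD, n = 3) in frozen embryos, and 7.02 ± 0.11 and 7.25 ± 0.43 in their controls. The groups did not differ beyond their spread in any order. Control extract 2 read 7.15 on its vitrified array and 7.74 on its frozen array, and this difference of 0.59 between readings of the same extract was larger than the median of 0.17 over all tested probes for that extract.

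The fitted ETV4 value in frozen embryos was -0.40 ± 0.09 (SE, 1.32-fold lower, 95% interval -0.62 to -0.18, adjusted p = 0.159), and in vitrified embryos 0.13 ± 0.09 (95% interval -0.09 to 0.35, adjusted p = 0.526). The difference between them was 0.53 ± 0.13 (95% interval 0.22 to 0.83), with an unadjusted p of 0.00417 in limma and an adjusted p of 0.589. Before the dye term, the ratios had an SD of 0.41 over the vitrified and 0.51 over the frozen arrays (n = 3 each). These SDs hold the shift of the swapped arrays, which the fitted SEs leave out. The fitted dye term was 0.39, and without it the frozen value was -0.27 (adjusted p = 0.709). Over the 2 frozen arrays with the treated extract in Cy5 alone, a setting chosen after the data were seen, it was 0.02. On the scanner software's log ratio ETV4 was at 0.65 in vitrified and -0.86 in frozen embryos and differed by 1.51 between them, and none of these passed. Without vitrified replicate 2 the vitrified value was 0.05.

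The ETV5 ratio was -0.17, -0.15 and -0.07 on the vitrified arrays and 0.22, -0.14 and 0.41 on the frozen arrays. Levels were 7.003, 7.18 and 7.14 in vitrified extracts against 7.17, 7.33 and 7.22, and 7.33, 7.07 and 7.24 in frozen extracts against 7.11, 7.21 and 6.84, with overlap throughout. The fitted value was -0.17 ± 0.11 (SE, adjusted p = 0.443) in vitrified embryos and 0.12 ± 0.11 (adjusted p = 0.689) in frozen. The intervals, -0.42 to 0.08 and -0.13 to 0.38, reach about as far from 0 as the frozen value of ETV4. ETV4 and ETV5 lay on opposite sides of 0 in both treatments. Leaving out 1 array moved the vitrified value between -0.35 (without vitrified replicate 2) and -0.11 (without vitrified replicate 1), and the frozen value between 0.04 (without frozen replicate 3) and 0.30 (without frozen replicate 2). On the scanner software's log ratio they were -0.34 and 0.47, and neither passed. Between vitrified and frozen embryos ETV5 differed by -0.30 ± 0.15 (adjusted p = 0.692).

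**Figure D2:**
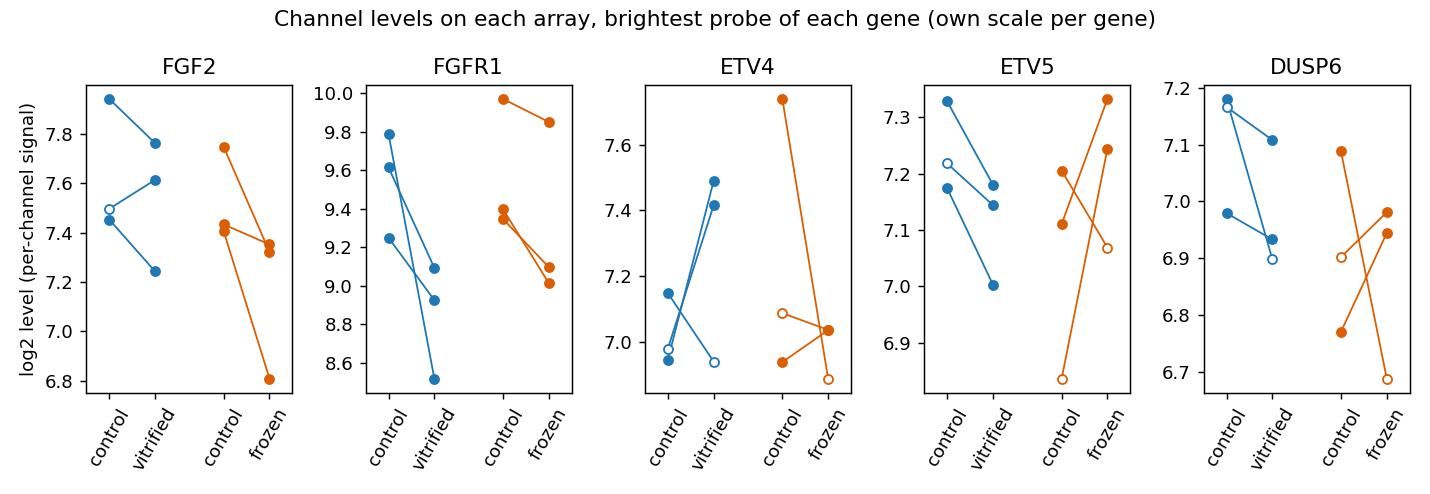
Log2 channel levels of the brightest probe of each gene, with a line joining the control and the treated extract of each array and open circles where a signal was not well above background; each gene has its own vertical scale. All vitrified FGFR1 levels (8.52 to 9.09) lie below their controls (9.25 to 9.79).

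DUSP6 removes phosphates from ERK in the cytoplasm and is itself induced by ERK, which makes it a feedback inhibitor of the pathway. On A_04_P080652 its ratio was -0.05, -0.28 and -0.06 on the vitrified arrays and 0.17, -0.40 and 0.08 on the frozen arrays. Levels were 6.93, 6.90 and 7.11 against 6.98, 7.18 and 7.17 on the vitrified arrays, and 6.94, 6.69 and 6.98 against 6.77, 7.09 and 6.90 on the frozen arrays. Treated and control levels overlapped in both treatments. Mean levels were between 6.87 and 7.11 in all groups, with SDs from 0.11 to 0.16 (n = 3 each).

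The fitted DUSP6 value was -0.19 ± 0.10 (SE, 95% interval -0.42 to 0.03, adjusted p = 0.347) in vitrified embryos and -0.11 ± 0.10 (95% interval -0.34 to 0.11, adjusted p = 0.688) in frozen embryos. Without frozen replicate 2 the frozen value was 0.01, and without vitrified replicate 2 the vitrified value was -0.32. On the scanner software's log ratio these values were -0.27 in frozen and -0.47 in vitrified embryos, and over the arrays with treated RNA in Cy5 they were 0.13 and -0.05. Over its 5 nearly identical probes the vitrified values ran from -0.19 to -0.03 and the frozen values from -0.30 to -0.10. The smallest unadjusted p among the frozen values was 0.0944 in limma. On A_04_P080656 and A_04_P080653 the frozen levels were all below the control levels, which 6% of all tested probes showed. On the other 3 probes they overlapped, although neighbouring probes share 59 of 60 bases. The treated signal of A_04_P080656 and A_04_P080653 was well above background on 2 of 3 frozen arrays. Their control signal was so on 2 and 1 of the 3. Control signals net of background on A_04_P080652 ran from 49.7 to 121, close to the offset of 50.

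The probe described as DUSP6 in the files but as DUSP7 in the gene table is A_04_P073472, at chr9:19157569-19157628 on the minus strand. DUSP7 is a related phosphatase of ERK. Its sequence has a GC content of 55.0%, above that of the 13 probes.
DUSP7 A_04_P073472: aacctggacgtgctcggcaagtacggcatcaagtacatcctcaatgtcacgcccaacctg
Its ratio was 0.39, -0.26 and 0.16 on the vitrified arrays, with a fitted value of 0.04 ± 0.13 (SE, adjusted p = 0.897). On no vitrified array were its treated and control signals both well above background, so this value is uncertain. On all 3 frozen arrays its control signal was not well above background, so no fold is given there.

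**Figure D3:**
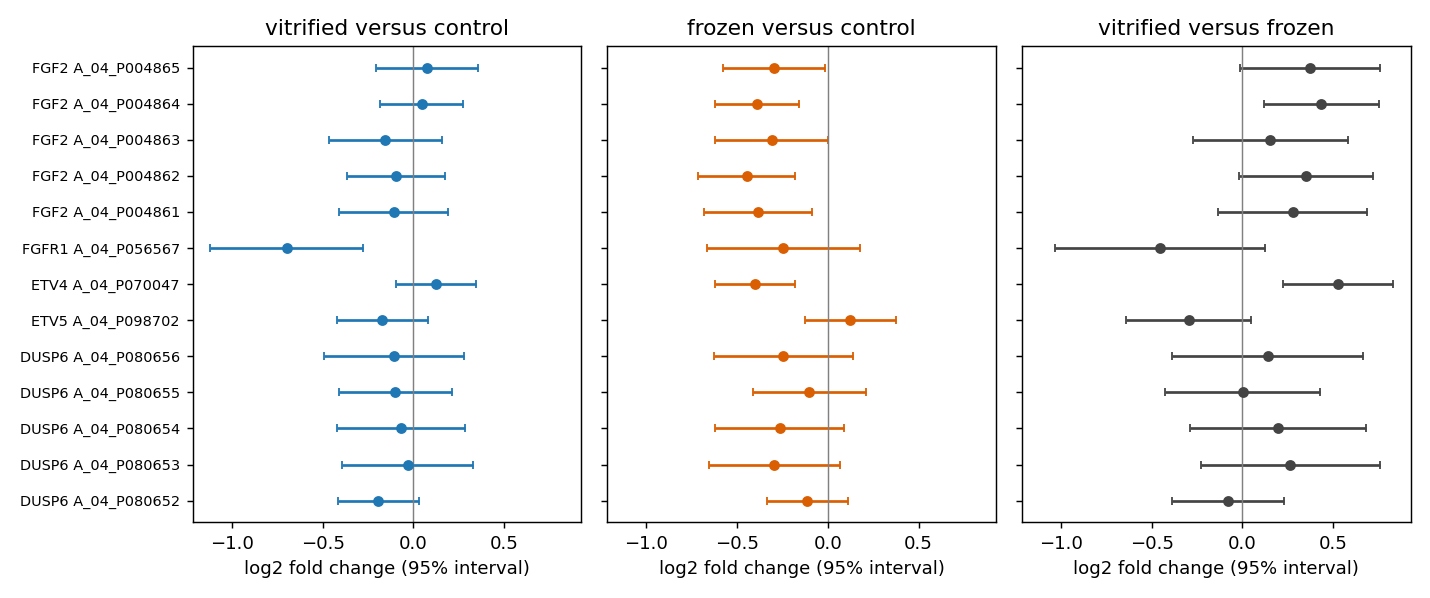
Fitted log2 fold change with its 95% interval for each of the 13 probes in the 3 comparisons, on 1 horizontal scale. The 5 FGF2 probes lie between -0.45 and -0.30 in frozen embryos and between -0.15 and 0.08 in vitrified embryos.

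The shared control extracts show how far channel levels of each gene differ between repeat readings, since each was read on 2 arrays. For FGFR1 the readings differed by 0.18, 0.22 and 0.10 for control extracts 1, 2 and 3. For FGF2 they differed by 0.02, 0.19 and 0.09, for ETV5 by 0.06, 0.12 and 0.38, and for DUSP6 by 0.21, 0.09 and 0.26. Over all tested probes the median difference was 0.14, 0.17 and 0.22 for the 3 extracts. The fitted ETV4, ETV5 and DUSP6 values were no larger than the largest of their own repeat differences. On the FGF2 probe A_04_P004865 the readings of control extract 2 differed by 0.34, against a frozen value of -0.30. These are differences of single-channel levels between arrays, while the fitted values come from ratios within arrays. They are thus not a like measure of the error of the fitted values.

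**Figure D4:**
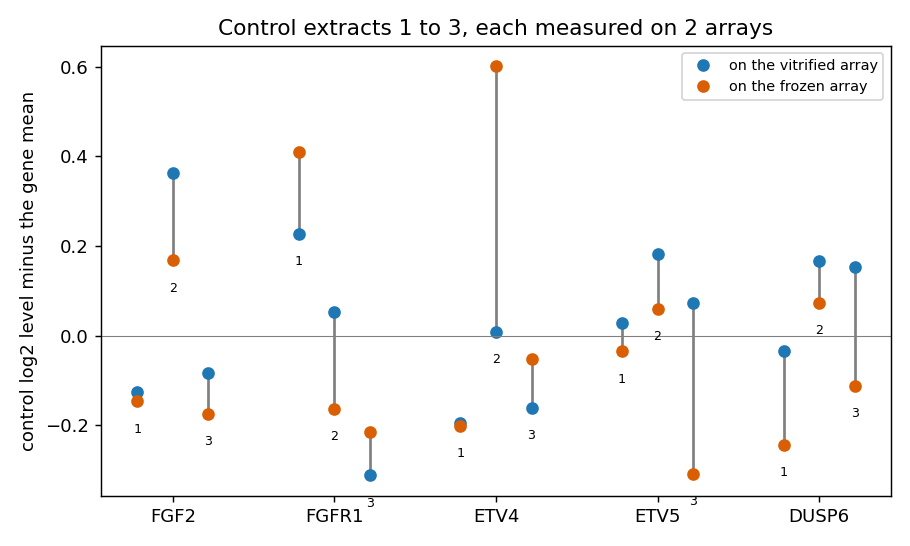
Control log2 levels of the brightest probe of each gene, minus the gene's mean, with a line joining the readings of a control extract on its vitrified and its frozen array; the digit is the extract. ETV4 extract 2 differs most between its readings, by 0.59.

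The pathway as a whole, these 5 genes included, was followed in lists of 93 genes by role. Of the 93, 52 had a tested probe with a symbol. No gene of any list passed in any comparison. At an unadjusted p under 0.05 in limma, 6 of the 52 lay above and 3 below control in vitrified embryos, 2 above and 7 below in frozen embryos, and 4 above and 1 below in vitrified against frozen embryos. Of all 8116 tested genes with a symbol, 749 lay above and 601 below in vitrified embryos, and 451 above and 608 below in frozen embryos, and 349 above and 283 below in vitrified against frozen embryos, at the same unadjusted p. Over the 52 genes the median was -0.00 in vitrified and 0.00 in frozen embryos, and over all 8116 genes it was -0.00 in both.

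Of 22 ligands 8 were tested, with a median of 0.06 in vitrified and -0.02 in frozen embryos. Over the 4 ligands well above background in at least 6 of 12 measurements the frozen median was -0.22. FGF12, which stays inside the cell and binds sodium channels, was at -0.40 ± 0.09 in frozen embryos (adjusted p = 0.158), with arrays at -0.32, -0.46 and -0.44, and at 0.11 in vitrified embryos. Its difference between the treatments, 0.51 ± 0.13, did not pass (adjusted p = 0.592). FGF10, a ligand of limb and lung buds, was at -0.34 in frozen embryos (adjusted p = 0.250), FGF9 at 0.17 in vitrified, and FGF18 at 0.12 in frozen. FGF12 and FGF10 lay near FGF2 in frozen embryos, while the other 5 tested ligands were between -0.04 and 0.12. FGF10 and FGF18 were each well above background in only 5 of 12 measurements. The frozen arrays of FGF10 read -0.25, -0.52 and -0.13, the lowest on the swapped array. FGF4, the ligand of the mouse epiblast, had no probe with its symbol, and 6 ligands on the array, FGF1, FGF7, FGF8, FGF11, FGF13 and FGF14, were too dim to be tested.

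Of 17 receptors and coreceptors 9 were tested, with a median of 0.05 in vitrified and -0.20 in frozen embryos. FGFR1 was the lowest of them in vitrified embryos. KL, a coreceptor for hormone-like FGFs, was at 0.60 ± 0.16 in vitrified (adjusted p = 0.185) and 0.26 in frozen embryos. In frozen embryos the lowest was FLRT3, a membrane protein that binds FGF receptors, at -0.67 ± 0.21 (adjusted p = 0.246), followed by GPC4, a heparan sulphate proteoglycan, at -0.41 ± 0.11 (adjusted p = 0.187). FLRT3 differed between vitrified and frozen embryos by 0.73 (adjusted p = 0.647), and KLB, the other klotho coreceptor, by 0.24 (adjusted p = 0.697). FGFR3 had no probe with its symbol.

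Of 21 genes that relay the signal to ERK 15 were tested, with medians of -0.00 and 0.06. SOS2, which loads RAS with GTP, was at 0.41 and 0.24, and MAPK3, which encodes ERK1, was at 0.43 in vitrified embryos. The scaffold KSR1 differed by 0.18 between vitrified and frozen embryos. None of these passed.

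Of 14 feedback inhibitors 10 were tested, with medians of -0.10 and -0.01. SPRED1, an inhibitor of RAS activation, was at -0.31 in vitrified embryos, SPRY1 at -0.22 in frozen, and DUSP4, a nuclear phosphatase of ERK, at 0.15 in vitrified and 0.37 in frozen (adjusted p = 0.313). IL17RD differed by -0.17 and CBL by 0.14 between vitrified and frozen embryos, and neither passed. SPRY2, a further ERK-induced inhibitor, was named only by the description in the array files. Its 5 probes start between bases 777 and 846 of the transcript and were well above background in all 12 measurements. The brightest, A_04_P065836, was at 0.33 ± 0.12 in vitrified and at 0.13 in frozen embryos. The others were between -0.01 and 0.06 in vitrified and between -0.16 and -0.11 in frozen embryos. SPRY2 thus had no probe past the test in either treatment, with a smallest adjusted p of 0.230.

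Of 19 targets and effectors of ERK 10 were tested, ETV4 and ETV5 included, with medians of 0.03 and 0.05. MYC, a growth regulator stabilised by ERK, was at 0.33 in vitrified and 0.55 ± 0.14 in frozen embryos (adjusted p = 0.179), the highest of the list in both. FOS, an immediate early gene, was at -0.23 in vitrified embryos. In frozen embryos the lowest of the list was ETV4 and in vitrified embryos FOS. The ERK targets therefore lay on both sides of 0 in each treatment.

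**Figure D5:**
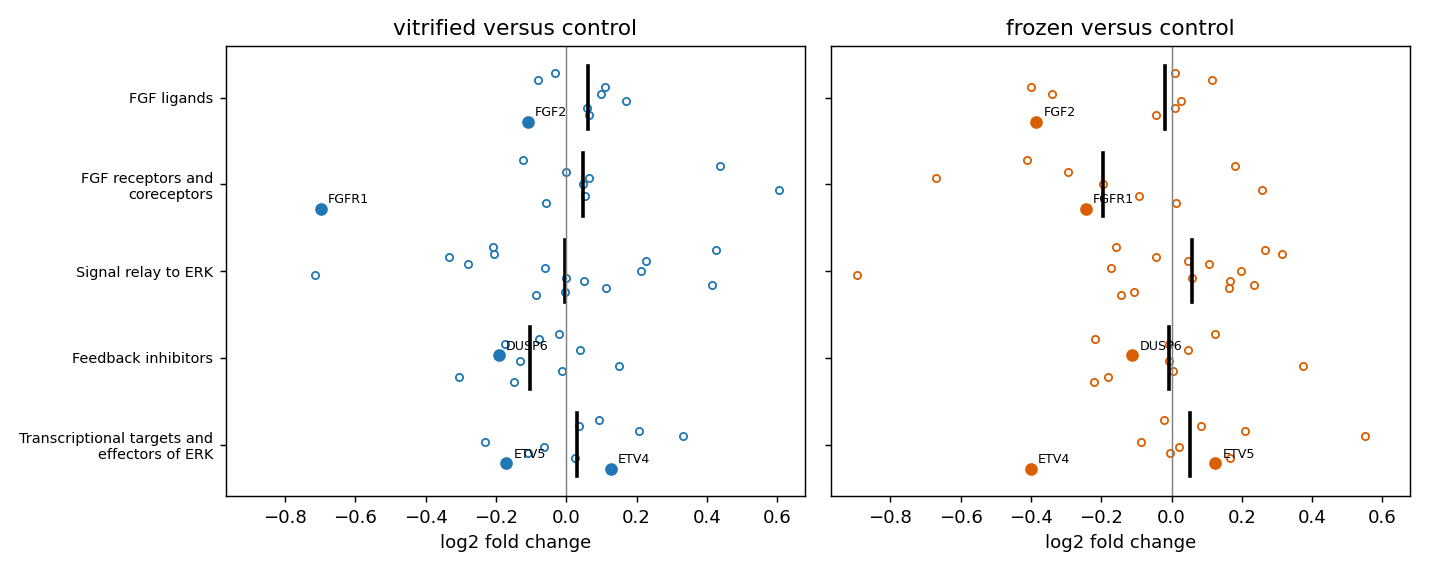
Fitted log2 fold change of the brightest probe of each tested pathway gene, by role, with a black bar at the median of each list and filled circles for the 5 genes described here. Medians run from -0.10 to 0.06 in vitrified and from -0.20 to 0.06 in frozen embryos.

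Values of markers of the cell types of the blastocyst are given beside these, and of all marker lists 1 gene passed, in frozen embryos. In bulk extracts, fewer cells of a type and less RNA per cell cannot be told apart. Of 12 epiblast markers 6 were tested, and in frozen embryos 4 of them were below control, with a median of -0.18. POU5F1, which marks pluripotent cells, was at -0.94, -0.88 and -0.56 on the frozen arrays and at -0.65, -0.17 and 0.63 on the vitrified arrays. Summed over the list, epiblast signal was 18622 to 20306 in frozen extracts against 19894 to 31670 in their controls, and 22980 to 29903 in vitrified extracts against 22978 to 29870. Markers NANOG and SOX2 had no probe with their symbol. OTX2 was at -0.51 in frozen embryos.

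Of 13 hypoblast and yolk sac markers 7 were tested, with a median of -1.0 in frozen embryos and -0.09 in vitrified. In frozen embryos 6 of the 7 were below control and 1 passed, APOA2, an apolipoprotein named after its values were seen (-1.0 ± 0.12, SE, adjusted p = 0.0423). APOA1 was at -1.13 in frozen embryos, and the summed signal was 4072 to 6190 against 8202 to 13689. GATA6 and SOX17, which define the hypoblast, had no probe with their symbol. In vitrified extracts the sum was 7095 to 13354 against 9634 to 14951.

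Of 12 trophectoderm markers 7 were tested, with medians of 0.21 in vitrified and 0.27 in frozen embryos, and none passed limma's test. In vitrified embryos 6 of the 7 were above 0 and 2 of them had an unadjusted p under 0.05, and in frozen embryos 5 were above 0 and 3 had such a p. TFAP2A was at 0.66 and 0.34, and GATA3 at 0.14 and 0.46. Their summed signal was 41457 to 50555 in vitrified extracts against 28903 to 46446, and 34861 to 38905 in frozen extracts against 31727 to 38599. CDX2 had no probe with its symbol. Of 5 mesoderm and primitive streak markers 3 were tested, with medians of 0.08 in vitrified and -0.02 in frozen embryos, and none passed. In vitrified embryos all 3 were above 0. In frozen embryos 2 were below 0, the lowest at -0.39, and 1 had an unadjusted p under 0.05 in limma. TBXT, which marks the primitive streak, was well above background in 4 of 12 measurements and was at 0.09 and -0.02.

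Of 5 markers of uterine epithelium 2 were tested, with medians of 1.55 in vitrified and 0.92 in frozen embryos, and summed signals of 3857 to 6876 against 1813 to 3320 and of 1343 to 4042 against 1310 to 2937. SCGB1A1, a uterine secretory protein, was at 2.03 and 1.51. Of 6 blood markers 3 were tested, with medians of 2.33 and 1.03, and summed signals of 14948 to 162001 against 3951 to 11493 and of 4249 to 40464 against 2690 to 4330. The alpha globin gene HBA was at 2.33 and 1.03. The part of these markers in the FGF2, FGFR1 and ETV4 values was not tested.

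Over the 6 arrays, the genes whose ratios lay closest to those of each member were sought among 8115 other genes by the mean absolute difference of log2 ratios, as a description over arrays that share controls. For FGF2 they were NFIL3 at 0.047, GPC4 at 0.060 and AARSD1 at 0.074, with a median of 0.32 over all genes. For FGFR1 they were HOMER1, OPA1 and ACTR2, at 0.13 to 0.15 with a median of 0.51, and for ETV4 AVPR2, CD3G and LSAMP, at 0.12 to 0.15 with a median of 0.41. For ETV5 they were ARHGAP36, KLHL12 and HEATR5A, at 0.048 to 0.055, and for DUSP6 SLC2A11, CASS4 and CACHD1, at 0.038 to 0.051. No member was among the 3 closest of another. Between members, ETV5 and DUSP6 lay closest at 0.15 and FGFR1 and ETV4 farthest apart at 0.63.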

How the data were processed

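Total RNA of 3 vitrified, 3 frozen and 3 control extracts was labelled with Cy3 and Cy5 and hybridised to 6 Agilent arrays. The deposited intensity of a spot is, per the file headers, its mean pixel signal in each channel, given beside the median of the local background and made with Agilent Feature Extraction (version 10.10.1.1 in the submitters' processing notes) without normalisation. A log10 ratio (red over green) deposited beside it, which served as an alternative, had per the file headers been background-subtracted and dye-normalised by the authors' scanner software. Here the intensities were corrected with normexp (offset 50) in limma 3.58.1 under R 4.3.3, followed by loess within each array, in which control and outlier-flagged spots had weight 0. Spots of a probe were averaged, and a probe was kept if at least 3 of its 12 channel measurements were well above background. Levels of single channels were further scaled between arrays (Aquantile). 1 probe without an estimate was dropped. A symbol was matched to 21303 of 43603 probes through a rabbit gene table (assembly mOryCun1.1), 1283 matched a gene without a symbol, 289 several genes and 20728 none. The gene level is that of the brightest tested probe. Log2 ratios were fitted with 1 term per treatment and 1 for the dye, leaving 3 residual degrees of freedom, followed by eBayes. No exact test was made, since 3 against 3 samples allow no p below 0.1. The fit was tested on simulated data.

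The members, lists, tests and alternatives were chosen with earlier results of these data known. Named are all probes of the 5 genes, 2 genes by p and the extremes of each list, chosen markers, and the 3 genes closest to each member. Some genes that this rule takes are not reported here. Per the labels, arrays of the same replicate number share a control extract, which pairs them. Deviations of paired arrays from their group means correlated at 0.017, 0.59 and 0.17 for replicates 1, 2 and 3, and replicate 2 also shares the swapped dyes. Alternatives covered background, normalisation, filter, dye, block, slide, spread, weights, probes and leaving out each array.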

Additional observations from a re-analysis of the deposited data

How the results depend on the processing

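Of 310 values of the 5 genes under alternatives, 301 kept their direction and their side of the threshold. Scaling between arrays, changes of the filter, the replicate block and an intensity trend in the spread left the fitted values as they were. So did the mean over probes for FGFR1, ETV4 and ETV5. Under these settings the direction could not change. With array weights, which rest on 3 residual degrees of freedom and were 2.85 for both swapped arrays against 0.36 to 1.18 for the rest, FGFR1 in vitrified embryos (-0.56, adjusted p = 0.0259), FGF2 in frozen embryos (-0.44, adjusted p = 0.0134) and ETV4 in frozen embryos (-0.44, adjusted p = 0.00562) and between the treatments (0.60, adjusted p = 0.0313) passed. So did 3611, 5585 and 1064 of all probes and 1, 8 and 4 of the 13 probes in the vitrified, frozen and direct comparisons. Reversed were ETV4 in frozen embryos over the arrays with treated RNA in Cy5 alone, a setting chosen after seeing the data (0.023), and DUSP6 in frozen embryos, which ran from -0.16 to 0.012 without 1 array, the highest without frozen replicate 2, and was at 0.13 over the Cy5 arrays alone. DUSP6 between the treatments reversed with array weights (0.033) and as the mean over its probes (0.11). Of all probes, 6 passed in vitrified embryos. With the deposited log ratio, the slide as a covariate or the Cy5 arrays alone 0 did, with only that comparison's arrays 2, and without 1 array 0 to 16. In frozen embryos 57 passed, and with an offset of 10 this was 3, with the deposited log ratio 1, with median centring 33 (8 higher, 25 lower, against 27 and 30), without the dye term 8, and with the slide or the Cy5 arrays alone 0. Without 1 array it was 0 to 513, the highest without vitrified replicate 1; it was 3 without vitrified replicate 2 or 3, 1 without frozen replicate 1, and 0 without frozen replicate 2 or 3. The cause was not tested. With the replicate as a random block (consensus correlation -0.10) 8, 61 and 0 probes passed, and the block changed no call of the 5 genes: FGFR1 in vitrified embryos had adjusted p = 0.169 and FGF2 and ETV4 in frozen embryos 0.241 and 0.151. Of 200 medians of the pathway lists under alternatives 24 moved by more than their spread. Those among them that changed sign were for the receptors in vitrified embryos (-0.04 with median centring) and for the ERK targets (with the deposited log ratio -0.09 in vitrified and -0.08 in frozen embryos, and -0.01 in vitrified embryos without vitrified replicate 1). Signals close to background limit the FGF2, ETV4, ETV5 and DUSP6 values.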
